A study of Camellia reticulata with 27 samples.

Results

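The transcripts described here are the 200 that stood highest at the initial flowering stage of the Yunnan camellia cultivar MN (Manao) over the other 4 MN groups, out of 225938 transcripts in the table. For each transcript, L was the log2 of its group mean FPKM plus 1, and the score was L at the initial flowering stage minus the highest L of bud stage 1, bud stage 3, the white region and the red region. FPKM counts read fragments scaled by the length of the transcript and the size of the library. Candidates needed a mean of at least 5 FPKM at the initial flowering stage, which 27789 transcripts reached, and 9100 of these had a score above 0. The 86 transcripts that the study names by function were removed first, and 0 of them would have entered the 200. The members were thus chosen by the MN values, so every MN value of the members below is a description and carries no test.

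RNA was sequenced from petals of plants grown in natural tea gardens, in 27 libraries of 9 groups with 3 replicates each. MN, whose flowers mix white and red, is a bud variant of the red cultivar SZT, and it was sampled at bud stage 1 (early), bud stage 3 (late), the initial flowering stage and the full-bloom stage, where MN's white region and red region were collected apart. SZT and the white cultivar TZM were the controls, with libraries of the bud stage and of full bloom and without the initial flowering stage. The labels do not say whether the replicates came from separate plants, so a p-value below measures the spread between these samples. Cultivar and plant material therefore cannot be told apart in a comparison of SZT with TZM.

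At initial flowering the bud opens and the petals expand and unfold, while the full-bloom stage follows once the flower is open. In plants, petal opening is known to involve loosening of cell walls and uptake of water and sugars. The transcripts come from an assembly made without a genome: the number before the point in an identifier marks a cluster of similar sequences, which can be the versions of 1 gene, its alleles or close copies, and reads can be divided among them. The identifiers of the members are not paired with gene names in the files used here, so members are given by identifier and no role is stated for them. In petals, fewer cells of a type and less RNA per cell cannot be told apart.

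The libraries listed 126900 to 148030 transcripts above 0. Libraries of the initial flowering stage correlated with each other more closely (r up to 0.882 over log2 values) than with any library of another group (r up to 0.765). At full bloom the MN labels did not separate cleanly: the white region replicate 1 was nearest to red region replicate 2 (r = 0.884), and white region replicate 3 was nearest to red region replicate 1 (r = 0.888). SZT bud stage replicates 2 and 3 correlated at 0.809, the lowest value within a group, and TZM full-bloom replicate 1 reached at most 0.837 with its own group. Calls that rest on the SZT and TZM libraries are given below also without SZT bud stage replicate 2 and TZM full-bloom replicate 1. That setting was chosen after seeing the data. No list of stage markers was used and the members carry no gene names, so the stage is that of the labels.

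The scores of the 200 members ran from 3.05 to 6.35, with a median of 3.52 on the log2 scale. Their mean level at the initial flowering stage ran from 7.37 to 11506 FPKM, with a median of 29.0. Of the members, 22 had a mean between 5 and 10 FPKM, 133 between 10 and 100 FPKM and 45 above 100 FPKM. The threshold fell in a dense stretch of values. Just inside it were Cluster-33053.1 (score 3.06), Cluster-95576.11 (3.06) and Cluster-5815.25 (3.05), and just outside it Cluster-20003.55 (3.05), Cluster-95240.1 (3.05) and Cluster-95428.2 (3.05). Cluster-5815.25 was listed at 62.0, 30.6 and 7.65 FPKM in the 3 libraries of the initial flowering stage.

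**Figure D1:**
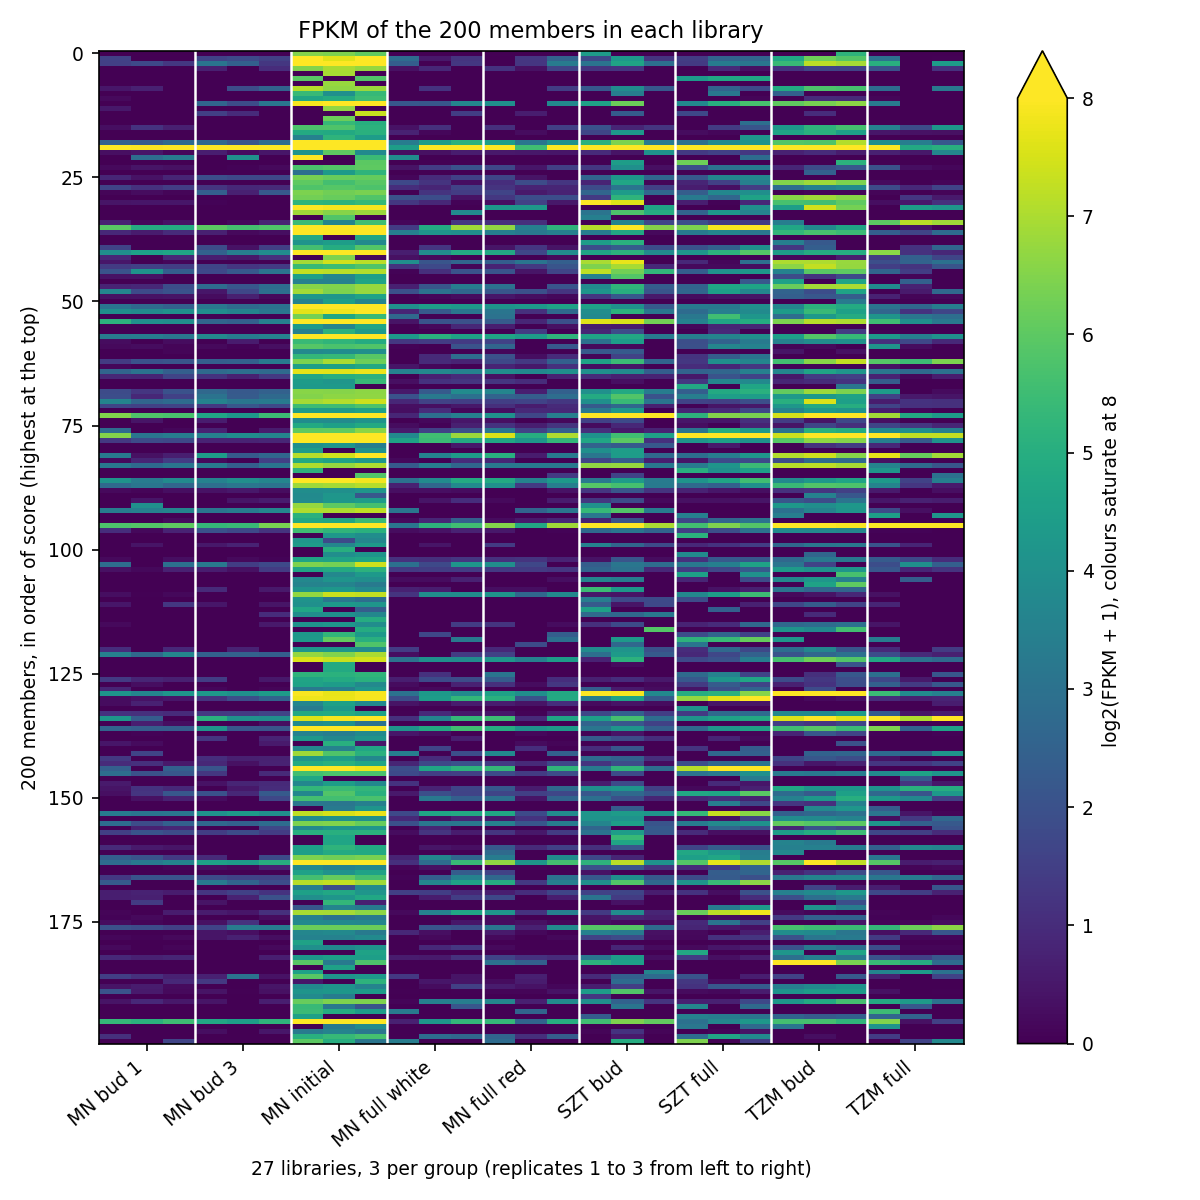
Each row is 1 of the 200 members in order of score and each column 1 of the 27 libraries; colour gives log2(FPKM + 1), from 0 to 8 and above. The 3 columns of the MN initial flowering stage are bright in nearly every row because the rows were chosen for it, while many rows are also bright in the TZM bud columns and dark in the TZM full-bloom columns.

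The 200 members together made up 2.30% to 2.56% of all FPKM in the initial flowering libraries. Their summed level was 27484, 29414 and 31077 FPKM there. It was 687 to 1130 FPKM over the 6 MN bud libraries. At full bloom the same sum was 323, 955 and 1834 FPKM in the white region and 2079, 409 and 1363 FPKM in the red region. The low and high full-bloom libraries fell in both regions alike: the lowest sums were those of white region replicate 1 and red region replicate 2, and the highest those of white region replicate 3 and red region replicate 1, the same pairs that were nearest to each other over all transcripts. In white region replicate 1 and red region replicate 2 the 10 highest transcripts held 13.7% and 12.1% of all FPKM. In the other MN full-bloom libraries they held 5.48% to 7.32%.

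In SZT and TZM the members lay between the MN extremes. Their sum was 5098, 9307 and 1604 FPKM in the SZT bud libraries and 2606, 5344 and 5892 FPKM in the SZT full-bloom libraries, so the SZT stages overlapped. In TZM it was 6241, 10230 and 9897 FPKM at the bud stage and 3571, 1764 and 2089 FPKM at full bloom, and these stages did not overlap. A single transcript, Cluster-93292.1, made up 37.1% to 40.3% of the sum in the initial flowering libraries. Without it, the sums were 17287 to 18561 FPKM at the MN initial flowering stage, 3908 to 6919 FPKM at the TZM bud stage and 1737 to 2947 FPKM at the TZM full-bloom stage.

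**Figure D2:**
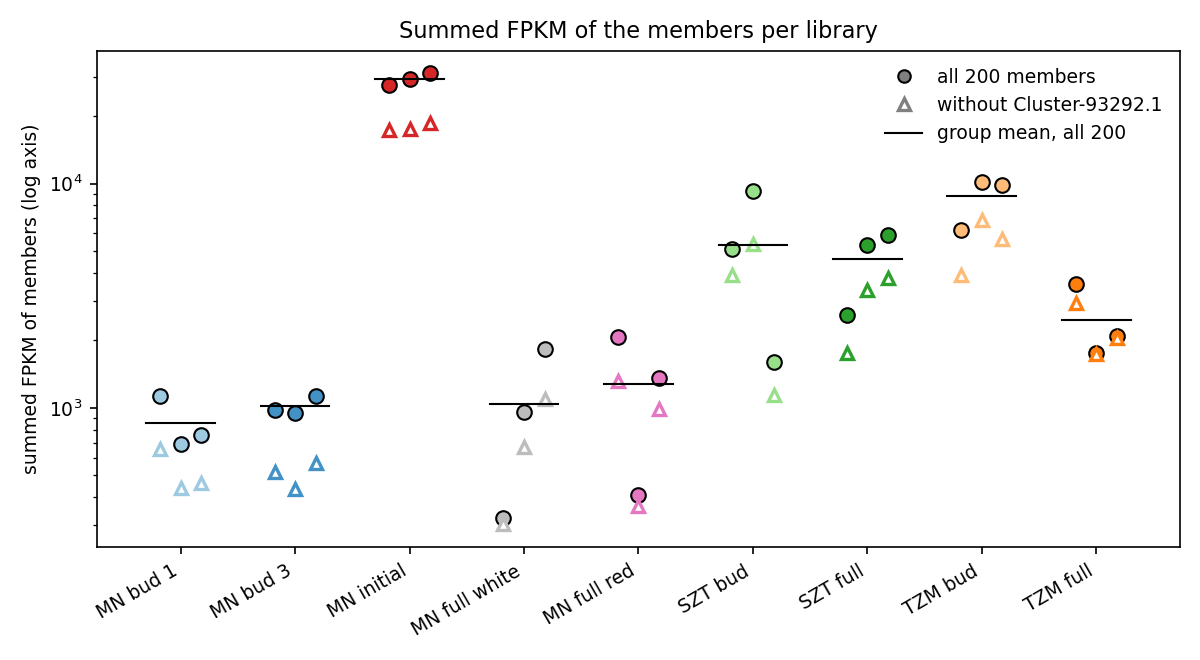
Summed FPKM of the 200 members in each of the 27 libraries on a log axis, as circles for all members and triangles without Cluster-93292.1; black bars are group means of the circles. The 3 MN initial flowering libraries lie between 27484 and 31077, the other 12 MN libraries between 323 and 2079, and the TZM bud libraries between 6241 and 10230.

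The 8 members of highest score differed in how many libraries carried them. Cluster-85494.0, with the highest score (6.35), was listed at 91.2, 84.1 and 65.8 FPKM in the initial flowering libraries and at 0 in the other 12 MN libraries. Outside MN it was listed above 0 only at 20.3 FPKM in SZT bud replicate 1 and 36.1 FPKM in TZM bud replicate 3. An exact 0 in such a table can be a failed estimate rather than an absent transcript.

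Cluster-97078.2 (score 6.03) stood at 256, 197 and 258 FPKM at the initial flowering stage and between 0 and 6.14 FPKM in the other MN libraries. Cluster-97078.3 (5.73) stood at 303, 270 and 301 FPKM, against 0 to 9.08 FPKM in the rest of MN, and Cluster-97078.7 (5.09) at 137, 100.3 and 111 FPKM, against 0 to 4.69 FPKM. These members share a cluster number and were high in all initial flowering libraries. Cluster-107504.2 (5.59) was listed at 88.3, 125 and 105 FPKM and reached at most 2.15 FPKM in the other MN libraries and 3.07 FPKM in SZT and TZM.

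The other 3 of these 8 were uneven among the initial flowering replicates. Cluster-35986.0 (score 5.40) was listed at 124 FPKM in replicate 2 and at 0 in the other 26 libraries, and Cluster-35275.0 (5.21) at 108 FPKM in replicate 2 and at 0 in the other 26. Their scores therefore rest on 1 library each. Cluster-56488.51 (5.32) was listed at 60.9, 0 and 55.6 FPKM at the initial flowering stage and at 18.7, 26.0 and 26.3 FPKM in the SZT full-bloom libraries, and at 0 in every other library.

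Of all 200 members, 158 were above 0 in all 3 initial flowering libraries, 18 in 2 of them and 24 in just 1. The 24 were spread over replicate 1 (6 members), replicate 2 (11) and replicate 3 (7). For 156 members every initial flowering library was above every other MN library, a count that the choice of members largely fixes. Of the 200 members, 47 were listed at 0 in all 12 other MN libraries, and 14 of those were above 0 in all 3 initial flowering libraries. For the members with 3 values above 0, the coefficient of variation between the initial flowering libraries had a median of 15.5% and ran from 0.327% to 117%.

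The 8 members of highest level were present in all initial flowering libraries and were also expressed in SZT and TZM. Cluster-93292.1 was the most abundant, at 10197, 11805 and 12516 FPKM at the initial flowering stage, 248 to 558 FPKM in the MN bud libraries and 20.9 to 765 FPKM in the MN full-bloom libraries. It was listed at 1181, 3907 and 465 FPKM in SZT buds, 843, 2004 and 2105 FPKM in SZT full bloom, 2333, 3310 and 4251 FPKM in TZM buds and 624, 27.6 and 32.2 FPKM in TZM full bloom. The TZM stages did not overlap, with full bloom lower in all 3 libraries, but the difference on the log2(FPKM + 1) scale missed the threshold (-5.25 ± 1.17 SE, limma, adjusted p = 0.00111). The full-bloom replicates themselves differed widely, with replicate 1 far above replicates 2 and 3.

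Cluster-106568.3 stood at 1381, 1400 and 1771 FPKM at the initial flowering stage and at 7.65 to 186 FPKM in the other MN libraries. In SZT it was listed at 15.8, 46.0 and 23.0 FPKM in buds and 261, 833 and 600 FPKM at full bloom, so the stages did not overlap and full bloom was higher. TZM had 168, 1256 and 777 FPKM in buds and 555, 151 and 154 FPKM at full bloom, where the stages overlapped. Cluster-71471.0 showed another order: 953, 887 and 822 FPKM at the MN initial flowering stage, but 792, 657 and 264 FPKM already in SZT buds, against 18.3 to 89.0 FPKM in MN buds and 0.83 to 15.4 FPKM in MN full bloom.

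Cluster-99823.3 (972, 1024 and 1208 FPKM at the MN initial flowering stage) and Cluster-94379.1 (919, 902 and 1004 FPKM) are taken up with their cluster numbers below. Cluster-57700.0 was listed at 415, 555 and 592 FPKM at the MN initial flowering stage and at 1.17 to 100.2 FPKM in the other MN libraries. Cluster-71802.2 stood at 441, 558 and 561 FPKM, with 3.30 to 34.3 FPKM in the rest of MN. Cluster-81551.0 stood at 447, 414 and 411 FPKM, and was lower in MN buds (0.74 to 2.55 FPKM) than in MN full bloom (17.7 to 42.5 FPKM), without overlap. Of these 3, Cluster-71802.2 fell in TZM, from 57.5, 55.1 and 134 FPKM in buds to 14.8, 9.46 and 3.60 FPKM at full bloom (log2 difference -3.06 ± 0.61 SE, limma, adjusted p = 0.000395), whereas the TZM differences of Cluster-57700.0 (-4.73 ± 1.16, adjusted p = 0.00237) and Cluster-81551.0 (-3.07 ± 0.73, adjusted p = 0.00184) missed the threshold.

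Being highest at the initial flowering stage of MN did not make a member highest over all groups. For 164 of the 200 members the MN initial flowering stage had the highest of the 9 group means, and for the other 36 a group of another cultivar was higher: the TZM bud stage for 15, the SZT full-bloom stage for 10, the SZT bud stage for 7 and the TZM full-bloom stage for 4. The highest SZT or TZM group mean of a member was, as a median, 31.9% of its MN initial flowering mean, and it was under 10% for 36 members. It lay in the TZM bud group for 79 members, in SZT full bloom for 49, in SZT buds for 44 and in TZM full bloom for 17.

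A mean of at least 5 FPKM was reached by 93 members in TZM buds (46.5%, against 50.6% of the 55099 transcripts tested), by 86 in SZT buds (43.0% against 55.1%), by 74 in SZT full bloom (37.0% against 49.2%) and by 46 in TZM full bloom (23.0% against 49.4%). The members thus reached this level least often in the open flowers of TZM. The shares of all tested transcripts are not on equal terms with these. Tested transcripts entered by reaching 5 FPKM in any of the 9 groups, SZT and TZM groups included. Members entered through the MN initial flowering stage, and 135 of them reached 5 FPKM in an SZT or TZM group. Lower shares of the members are therefore partly fixed by the filter. A total of 53 members were above 0 in all 12 SZT and TZM libraries, and 11 were listed at 0 in all of them (0.893% of all tested transcripts were). Of those 11, 9 were above 0 in 1 initial flowering library only and 1 in all 3. Cluster-72198.0, chosen here after its values were seen, shows how far a member can be expressed elsewhere: its means were 37.4 FPKM at the MN initial flowering stage, 159 FPKM in SZT buds and 54.2 FPKM in TZM buds.

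The next question was how the members behaved between the bud and full-bloom stages of the control cultivars, whose libraries did not enter the rule. Calls needed a difference of 1 or more in either direction on the log2(FPKM + 1) scale and an adjusted p of at most 0.001 (limma on all 27 libraries, Benjamini-Hochberg over 55099 transcripts). This scale understates the change of low transcripts. The spread used for each member came from all 27 libraries, including the 15 MN libraries whose values the rule used. Of the members, 47 were listed at 0 in every MN library outside the initial flowering stage, which adds no spread there. The p-values are thus not free of the rule. Tested transcripts could also pass the filter through SZT or TZM, so a lower called share of the members is partly set by the filter.

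In TZM, 39 of the 200 members fell between bud and full bloom and 1 rose. That is 19.5% lower and 0.5% higher, against 10.8% lower and 7.06% higher over all tested transcripts. The median difference of the members was -0.83 on the log2 scale, and that of all tested transcripts was -0.09. In TZM full-bloom replicates 2 and 3 the 10 highest transcripts held 12.9% and 13.7% of all FPKM. They held 5.19% in TZM full-bloom replicate 1 and 4.63% to 5.41% in the TZM bud libraries. Whether this bears on the falls of the members was not tested. Every TZM bud library was above every TZM full-bloom library for 73 members (36.5%, against 28.2% of all tested), and the reverse held for 8 members (4% against 18.2%). The direction stayed the same in all alternatives, but the count did not. It was 24 without TZM bud replicate 3, 23 without TZM full-bloom replicate 2, 26 without TZM full-bloom replicate 3, and 14, all lower, with the 6 TZM libraries fitted alone (7% of members against 2.05% of all tested). Leaving out 1 TZM library at a time, 11% to 20% of the members fell, against 8.41% to 11.2% of all tested transcripts. With the 12 SZT and TZM libraries fitted alone it was 8, all lower, and this share (4%) was below that of all tested transcripts (6.87%), so the excess over the background depended on which libraries set the spread.

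The 3 largest falls among the members called in TZM all went to a low level. Cluster-89374.0 was listed at 89.6, 112 and 84.9 FPKM in TZM buds and at 0.17, 0 and 0.09 FPKM at full bloom (log2 difference -6.47 ± 0.77 SE, limma, adjusted p = 9.12e-07), a call that held in all 16 alternatives. Cluster-60403.68 followed the same course, from 94.0, 116 and 94.1 FPKM to 0, 1.39 and 0.50 FPKM (-6.05 ± 0.81 SE, adjusted p = 3.62e-06). Cluster-104883.0 went from 97.1, 154 and 106 FPKM to 1.77, 1.32 and 3.20 FPKM (-5.29 ± 0.92 SE, adjusted p = 8.34e-05). The stages did not overlap for any of the 3. The fit on the 12 SZT and TZM libraries alone ended the last 2 calls, and adding 0.01 in place of 1 to the FPKM also ended that of Cluster-104883.0.

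The single rise in TZM was Cluster-97078.1, which was listed at 9.44, 0 and 0 FPKM in buds and at 62.1, 143 and 116 FPKM at full bloom (log2 difference 5.54 ± 0.81 SE, limma, adjusted p = 1.16e-05). These levels were above its own at the MN initial flowering stage, whose mean was 33.2 FPKM. Fitting the TZM libraries alone, or the 12 SZT and TZM libraries alone, ended this call, as did adding 0.01 in place of 1 to the FPKM.

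**Figure D3:**
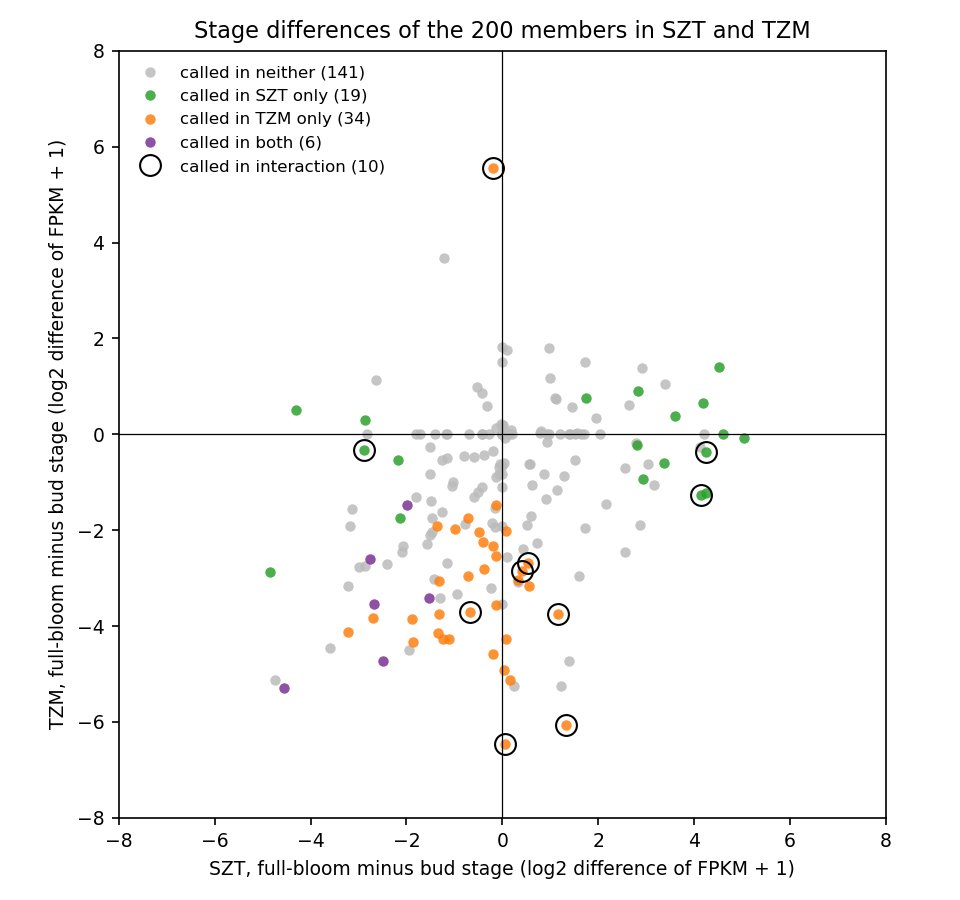
Each point is 1 of the 200 members, with the log2 difference between full-bloom and bud stage in SZT on the horizontal axis and in TZM on the vertical axis; colours show where limma called it and open circles mark the 10 called in the interaction. Most coloured points lie below 0 on the TZM axis (39 lower, 1 higher), while those called in SZT lie on both sides (13 higher, 12 lower).

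In SZT the members split evenly. There, 13 rose between bud and full bloom and 12 fell, which is 6.5% and 6% of the members, against 10.5% higher and 16.4% lower over all tested transcripts. With median-ratio scaling, which moved the median of all tested transcripts by 0.23 on the log2 scale, the split of the members was 15 higher and 9 lower (7.5% and 4.5%), and that of all tested transcripts 13.2% higher and 11.4% lower. The median difference was 0 for the members and -0.23 for all tested transcripts. Every SZT bud library was above every SZT full-bloom library for 22 members (11%, against 32.3% of all tested), and every full-bloom library was above every bud library for 26 (13.0% against 20.2%). A total of 6 members (3%) were called in both cultivars, all of them lower at full bloom, against 8.54% of all tested transcripts called in both in any direction.

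The SZT bud replicates were far apart in these members. Of the 160 members above 0 in SZT buds, 112 (70.0%) were highest in replicate 2 and 7 in replicate 3, whereas 31.4% of all tested transcripts above 0 in SZT buds were highest in replicate 2. Outside their own group, MN initial flowering replicates 1 and 3 were nearest to SZT bud replicate 2 (r = 0.751 and 0.765). MN initial flowering replicate 2 was nearest to MN red region replicate 1 (r = 0.763). Whether this likeness bears on the SZT bud levels of the members was not tested. Without SZT bud replicate 3, the SZT stage comparison called 41 members, 7 higher and 34 lower (3.5% and 17%, against 8.93% and 14.4% of all tested in that fit), and without SZT bud replicate 2 and TZM full-bloom replicate 1 it called 23, 16 higher and 7 lower (8% and 3.5%, against 9.54% and 15.7%). It called 15 members without SZT bud replicate 1, 16 without SZT full-bloom replicate 2, 14 without SZT full-bloom replicate 3 and 3 with the 6 SZT libraries alone. These last counts are given without the share of all tested transcripts and are not read against it. In the fits whose rises and falls are given apart, the SZT balance between them moved with the libraries left out.

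Among the called rises in SZT, Cluster-90730.137 went from 1.58, 13.5 and 0.78 FPKM in buds to 70.7, 144 and 227 FPKM at full bloom (log2 difference 5.04 ± 0.87 SE, limma, adjusted p = 5.77e-05). Cluster-56488.51 was listed at 0 in all SZT buds and at 18.7, 26.0 and 26.3 FPKM at full bloom (adjusted p = 0.000179), and Cluster-113.496 at 0 in all SZT buds and at 32.0, 14.9 and 21.99 FPKM (adjusted p = 0.000747). The stages did not overlap for these 3. Leaving out SZT full-bloom replicate 2 or 3, or SZT bud replicate 2 with TZM full-bloom replicate 1, ended the call of Cluster-56488.51, and leaving out any 1 of the 6 SZT libraries ended that of Cluster-113.496. That of Cluster-113.496 also ended without a filter and with the 12 SZT and TZM libraries fitted alone. The call of Cluster-90730.137 ended with 0.01 in place of 1 added to the FPKM, and with the SZT libraries fitted alone.

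Among the called falls in SZT, Cluster-36132.10 was listed at 39.9, 55.3 and 9.29 FPKM in buds and at 0 in all full-bloom libraries (adjusted p = 2.54e-05, limma). Cluster-104883.0 went from 85.8, 123 and 0.91 FPKM to 0.15, 0.15 and 0.20 FPKM (log2 difference -4.55 ± 0.92 SE, adjusted p = 0.000287). Cluster-94379.2 went from 58.8, 58.9 and 5.79 FPKM to 0.76, 0.42 and 0.26 FPKM (-4.31 ± 0.77 SE, adjusted p = 7.83e-05). In all 3, bud replicate 3 was the lowest of the buds. The call of Cluster-104883.0 ended without SZT bud replicate 1 or 2 or any 1 of the SZT full-bloom libraries. Leaving out SZT bud replicate 2 together with TZM full-bloom replicate 1 ended those of Cluster-104883.0 and Cluster-94379.2. Fitting the SZT libraries alone ended all 3 calls. The fit on the 12 SZT and TZM libraries alone also ended that of Cluster-104883.0, and adding 0.01 in place of 1 to the FPKM that of Cluster-94379.2.

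Between the cultivars at the bud stage, 19 members were higher in TZM than in SZT and 8 were lower, that is 9.5% and 4% of the members, against 6.5% higher and 8.46% lower over all tested transcripts. The median difference was 0.55 for the members and -0.04 for all tested transcripts. The count of 27 fell to 15 without SZT bud replicate 1, 13 without TZM bud replicate 2 and 15 without TZM bud replicate 3. The shares of all tested transcripts in these 3 fits are not given, so the drop is not read as particular to the members. With the 6 bud libraries fitted alone limma called 0 members, and 2.06% of all transcripts tested there were called.

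Among the called members, the largest rises, TZM over SZT, were those of Cluster-89374.0 and Cluster-60403.68, whose TZM bud values are given above. In SZT buds they were listed at 0.73, 25.7 and 0.09 FPKM and at 1.54, 36.2 and 0 FPKM, below every TZM bud library (log2 differences 4.70 ± 0.77 and 4.48 ± 0.81 SE, limma, adjusted p = 5.99e-05 and 0.000155). Next came Cluster-106568.3 (4.36 ± 0.91 SE, adjusted p = 0.000664). The call of Cluster-60403.68 ended without SZT bud replicate 1 or 3 or TZM bud replicate 2, and that of Cluster-106568.3 without any 1 of the SZT bud libraries or without TZM bud replicate 2 or 3. Fitting the 6 bud libraries alone, or the 12 SZT and TZM libraries alone, ended all 3 calls. Adding 0.01 in place of 1 to the FPKM ended those of Cluster-89374.0 and Cluster-60403.68. That of Cluster-106568.3 also ended without a filter and with a replicate block.

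The largest falls among the called members were transcripts listed at or near 0 in TZM throughout. Cluster-79737.0 stood at 7.47, 53.8 and 29.7 FPKM in SZT buds and was listed at 0 in all 6 TZM libraries (adjusted p = 3.28e-05, limma). Cluster-70138.0 stood at 4.79, 17.8 and 5.30 FPKM in SZT buds and was also listed at 0 in all 6 TZM libraries (adjusted p = 1.50e-05). Cluster-55126.2 stood at 5.17, 19.8 and 5.49 FPKM in SZT buds and reached at most 0.08 FPKM in TZM (log2 difference -3.17 ± 0.50 SE, adjusted p = 3.68e-05). All 3 were also above 0 in every SZT full-bloom library, and fitting the 6 bud libraries alone ended each call.

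At full bloom, 5 members were higher in TZM than in SZT and 19 were lower, 2.5% and 9.5% of the members, against 8.76% higher and 9.51% lower over all tested transcripts. The share that was lower was thus at the background, and the share that was higher was below it. The medians were -0.35 for the members and 0 for all tested transcripts. The count of 24 fell to 14 without SZT full-bloom replicate 3, to 14 without TZM full-bloom replicate 2, to 14 without TZM full-bloom replicate 3 and to 8 with the 6 full-bloom libraries alone. Shares of all tested transcripts in these fits are not given, so the drop is not read as particular to the members.

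The 3 largest called falls at full bloom, TZM below SZT, held in all 16 alternatives. Cluster-90730.136 was listed at 140, 299 and 392 FPKM in SZT full bloom and at 0 in all 6 TZM libraries (adjusted p = 5.38e-06, limma), and Cluster-90730.137, of the same cluster number, at the SZT levels given above and at most 0.18 FPKM in TZM (log2 difference -7.02 ± 0.87 SE, adjusted p = 1.69e-06). Cluster-99823.3 stood at 84.2, 237 and 312 FPKM in SZT full bloom and at 0, 0.35 and 0 FPKM in TZM full bloom (-7.39 ± 0.93 SE, adjusted p = 1.97e-06). The cultivars did not overlap in any of these.

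The largest called rises at full bloom were Cluster-94379.2, with 39.0, 72.3 and 97.6 FPKM in TZM against at most 0.76 FPKM in SZT (log2 difference 5.49 ± 0.77 SE, limma, adjusted p = 7.16e-06), Cluster-97078.1, with at most 2.79 FPKM in SZT (5.12 ± 0.81 SE, adjusted p = 3.26e-05), and Cluster-94379.3, with 15.4, 32.6 and 30.8 FPKM in TZM against 0.13, 0.12 and 0.65 FPKM in SZT (4.34 ± 0.58 SE, adjusted p = 4.28e-06). Leaving out a library ended none of these 3 calls. Adding 0.01 in place of 1 to the FPKM ended those of Cluster-97078.1 and Cluster-94379.3. The fit on the 12 SZT and TZM libraries alone also ended that of Cluster-97078.1.

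Over both stages, every SZT library was above every TZM library for 10 members (5%, against 4.83% of all tested), and the reverse held for 5 (2.5% against 4.43%). A total of 4 members were above 0 in every SZT library and listed at 0 in every TZM library (2% against 1.53%), namely Cluster-79737.0, Cluster-70138.0, Cluster-90730.136 and Cluster-87845.1. Cluster-42729.2 alone showed the reverse (0.5% against 1.05%). The shares that favour SZT were near those of all tested transcripts. The last 2 of the named transcripts were chosen after their values were seen.

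The change from bud to full bloom was tested for a difference between TZM and SZT by the interaction of stage and cultivar. Here 10 members were called, 2 with a higher and 8 with a lower change in TZM, 1% and 4% of the members, against 6.89% and 6.15% over all tested transcripts. The median of the members was -0.97 and that of all tested transcripts 0.11. The count was 21 without SZT bud replicate 2, 18 without TZM full-bloom replicate 1, 16 without TZM bud replicate 1, and 6 without TZM full-bloom replicate 2 or without TZM full-bloom replicate 3. For these fits the share of all tested transcripts is not given, so they show only how the count moved. Without both SZT bud replicate 2 and TZM full-bloom replicate 1, a setting chosen after seeing the data, the count was 27. Of these, 26 were lower (13.0% against 6.91% of all tested). Of the members above 0 in the group, 70.0% were highest in SZT bud replicate 2 and 61.9% in TZM full-bloom replicate 1. For all tested transcripts these shares were 31.4% and 47.3%. Leaving both libraries out thus pushes the interaction of the members lower, so the excess over the background is not read as a result.

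Among the called members, the largest interactions, as log2 differences, were those of Cluster-60403.68 (-7.39 ± 1.14 SE, adjusted p = 4.27e-05 by limma) and Cluster-89374.0 (-6.51 ± 1.09 SE, adjusted p = 0.000106). In SZT full bloom these were listed at 8.77, 5.25 and 23.7 FPKM and at 0.77, 1.83 and 10.1 FPKM, within the range of their SZT buds, so the SZT stages overlapped where the TZM stages did not. Cluster-97078.1 had the largest positive interaction (5.74 ± 1.15 SE, adjusted p = 0.000558). Cluster-50717.0 was listed at 0 in all SZT buds and at 26.7, 18.5 and 9.48 FPKM in SZT full bloom, against 12.7, 0 and 0 FPKM in TZM buds and 0 in all TZM full-bloom libraries (adjusted p = 0.000373). No single library ended the first 2 calls. That of Cluster-97078.1 ended without SZT bud replicate 2 or 3, SZT full-bloom replicate 2 or 3, TZM bud replicate 2 or 3, or TZM full-bloom replicate 2 or 3, and that of Cluster-50717.0 without SZT bud replicate 1 or 3, SZT full-bloom replicate 1 or 2, or TZM full-bloom replicate 2 or 3.

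The members came from 160 cluster numbers. Of these, 135 held 1 member, 17 held 2 and 8 held 3 or more, so 65 members shared a cluster number with another member and are not independent. A cluster number of many transcripts can hold a member that is high at the initial flowering stage while its near relatives are not. Of the 200 members, 74 had no other transcript outside the 200 in their cluster number. For 64 of the remaining 126, the summed FPKM of the other transcripts also peaked at the initial flowering stage, and for 62 it did not. At a score of at least 1 for that sum, 31 did. The whole cluster number, members included, had a score of at least 1 for 137 members and of at most 0 for 29. The 137 include the 74 members with no other transcript outside the 200, for which the choice of members fixed it.

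**Figure D4:**
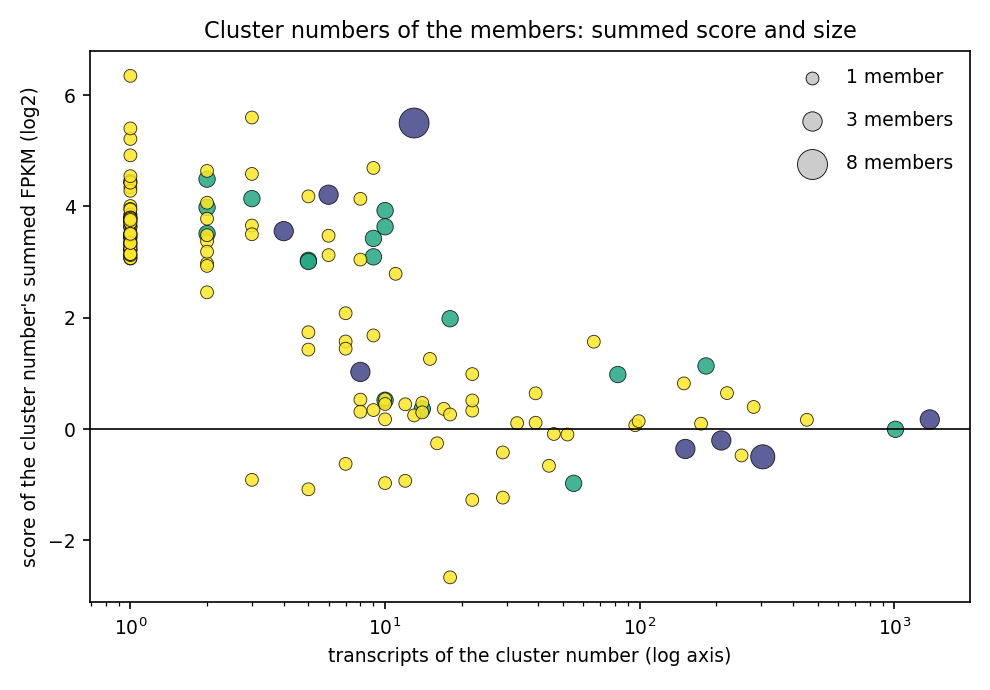
Each point is 1 of the 160 cluster numbers that hold members, placed by how many transcripts it has (log axis) and by the score of its summed FPKM; larger and darker points hold more members. Small cluster numbers mostly lie high, as they must when all their transcripts are members, while the large ones lie near 0, such as Cluster-3664 at -0.50 with 304 transcripts.

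Cluster-97078 held the most members, 8 of its 13 transcripts: Cluster-97078.1, Cluster-97078.2, Cluster-97078.3, Cluster-97078.6, Cluster-97078.7, Cluster-97078.8, Cluster-97078.9 and Cluster-97078.10. Summed over these, the level was 1196, 1008 and 1076 FPKM at the MN initial flowering stage and 3.92 to 23.5 FPKM in the other MN libraries, and its other 5 transcripts added 7.75 to 9.96 FPKM at the initial flowering stage. The whole cluster number had a score of 5.50. In TZM the sum of the members was 194, 588 and 518 FPKM in buds and 178, 211 and 266 FPKM at full bloom, and in SZT 42.0, 114 and 44.6 FPKM in buds and 7.68, 38.5 and 47.6 FPKM at full bloom. Every TZM library was above every SZT library in this sum.

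The 8 transcripts of Cluster-97078 moved differently in TZM. Cluster-97078.2 fell from 26.0, 73.7 and 56.7 FPKM in TZM buds to 7.06, 0 and 0.03 FPKM at full bloom (log2 difference -4.59 ± 0.84 SE, limma, adjusted p = 0.000149). Cluster-97078.10 also fell (-2.24 ± 0.41 SE, adjusted p = 0.00014), whereas Cluster-97078.1 rose, as given above. Reads of versions this close can be divided among them in the authors' counting, so the opposite directions within 1 cluster number are uncertain as changes of single transcripts.

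**Figure D5:**
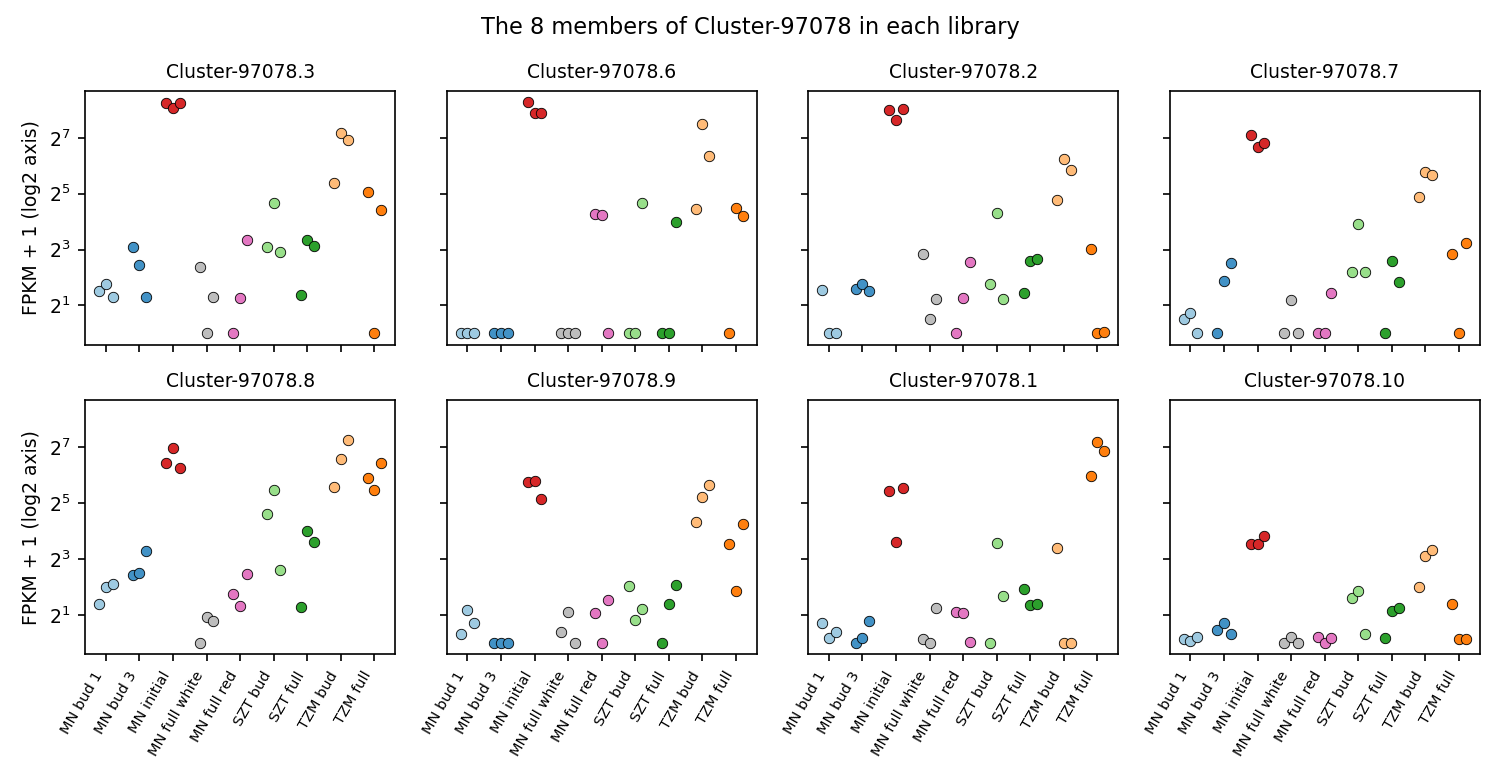
Each panel is 1 of the 8 members of Cluster-97078, with FPKM + 1 of every library on a log2 axis and the 9 groups side by side (3 points each). All panels are high at the MN initial flowering stage; Cluster-97078.1 is the panel in which the TZM full-bloom points (62.1, 143 and 116 FPKM) exceed those of the MN initial flowering stage.

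Other small cluster numbers had high scores for their sums, which the chosen members largely made up. Cluster-94379 had 3 of its 4 transcripts among the members (Cluster-94379.1, Cluster-94379.2 and Cluster-94379.3) and a score of 3.56. The members had a mean sum of 1054 FPKM at the initial flowering stage and 61.2 FPKM over the rest of MN. Its 1 other transcript did not share the peak, with a mean of 0.21 FPKM there and 1.29 FPKM in its highest other MN group. The main transcript, Cluster-94379.1, was listed at 533, 844 and 126 FPKM in SZT buds and 46.6, 87.2 and 57.0 FPKM in SZT full bloom, against 300, 297 and 239 FPKM in TZM buds and 428, 704 and 740 FPKM in TZM full bloom. At full bloom it was higher in TZM, without overlap (log2 difference 3.28 ± 0.62 SE, limma, adjusted p = 0.000218), as were Cluster-94379.2 and Cluster-94379.3. Its difference between TZM buds and full bloom missed the threshold (1.13 ± 0.62 SE, adjusted p = 0.169), whereas 39 of the 40 members called there fell.

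Cluster-99823 had 3 of 6 transcripts among the members and a score of 4.21. Its other 3 transcripts summed to a mean of 17.7 FPKM at the MN initial flowering stage and 3.18 FPKM in their highest other MN group. Cluster-99823.3 was the most abundant and stood at 136, 426 and 89.7 FPKM in SZT buds but at 25.7, 13.1 and 24.6 FPKM in TZM buds. Cluster-99823.2 and Cluster-99823.0 had means of 104 and 88.5 FPKM in TZM buds and 17.9 and 17.4 FPKM in SZT buds, the reverse order. All 3 fell in TZM between the stages (log2 differences -4.27 ± 0.93, -5.13 ± 0.91 and -4.92 ± 0.97 SE, limma, adjusted p = 0.000883, 0.000115 and 0.000339). These 2 cluster numbers were chosen for this account after their values were seen.

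In 3 large cluster numbers the whole moved less than the members. Cluster-3664 held 5 members among 304 transcripts (Cluster-3664.9, Cluster-3664.98, Cluster-3664.106, Cluster-3664.117 and Cluster-3664.256), whose sum was 0.39, 161 and 90.5 FPKM in the 3 initial flowering libraries, so replicate 1 carried almost none of it. Its other transcripts summed to a mean of 1015 FPKM at the initial flowering stage and 1279 FPKM over the rest of MN, and the whole cluster number had a score of -0.50. Cluster-113 held 3 members among 1376 transcripts (Cluster-113.433, Cluster-113.496 and Cluster-113.1181), with a score of 0.17 for the whole. The other transcripts of Cluster-113 were themselves somewhat higher at the initial flowering stage, with a sum of 4850 FPKM against 4338 FPKM in the highest other MN group. Cluster-56488 held 3 among 151 (Cluster-56488.32, Cluster-56488.51 and Cluster-56488.87), with a score of -0.36. Cluster-8434, added after its values were seen, held 3 among 209, with a score of -0.20. The sum of its members was 0, 110 and 161 FPKM in the initial flowering libraries, so replicate 1 was empty there too. Among the small cluster numbers, Cluster-108839 held 3 among 8 (Cluster-108839.2, Cluster-108839.6 and Cluster-108839.7), with a score of 1.03. For 18 members the other transcripts of the cluster number fell by at least as much as the members gained.

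Cluster-79885.1, chosen after its values were seen, was the 1 member that shared a cluster number with transcripts the study names, both of them called bHLH, a family of transcription factors. Its means were 122 FPKM at the MN initial flowering stage, 136 FPKM in TZM buds and 71.8 FPKM in SZT buds, against at most 8.54 FPKM in the other MN groups. The other 7 transcripts of Cluster-79885 summed to 29.1 FPKM at the MN initial flowering stage and to 97.5 FPKM in their highest other MN group, so they did not share its peak.

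As a reference for the stage, the 86 transcripts that the study names were tested in the same fit. The study chose them on these samples, so their direction is not independent evidence. Anthocyanins, the red pigments of petals, are flavonoids, and chalcone synthase (CHS), flavanone 3-hydroxylase (F3H), dihydroflavonol reductase (DFR) and anthocyanidin synthase (ANS) act in steps of their synthesis, while anthocyanidin reductase (ANR) turns anthocyanidins into colourless flavanols. Between bud stage 3 and initial flowering 42 of the 86 fell and 3 rose, against 9.48% lower and 6.88% higher over all tested transcripts. Set against the mean of the full-bloom regions, 47 of the 86 were higher at the initial flowering stage and 1 was lower, against 8.64% and 6.01%. The transcripts of a list mostly share a cluster number: all 6 of miRNA production belong to Cluster-100695, all 6 CHS to Cluster-72978, all 3 DFR to Cluster-90241, all 3 ANS to Cluster-21086, both ANR to Cluster-15097 and both of sucrose induced translational repression to Cluster-73402, while the 6 F3H belong to Cluster-81276 and Cluster-88339. Of posttranscriptional gene silencing, all but Cluster-64909.3 belong to Cluster-94053. Counts within a list can thus be versions of 1 gene and are not independent.

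Among the pigment enzymes, 5 of 6 CHS, 6 of 6 F3H, 3 of 3 DFR, 1 of 3 ANS and 0 of 2 ANR transcripts fell between bud stage 3 and initial flowering. Against full bloom, 4 of 6 CHS, 5 of 6 F3H, 1 of 3 ANS and 0 of the DFR and ANR transcripts were higher at the initial flowering stage. None of the DFR and ANR transcripts was called lower either. Their median log2 differences from full bloom were 0.77 for DFR and -2.80 for ANR. Cluster-72978.4 (CHS) went from 1371 ± 176 to 131 ± 28.1 FPKM (SD, n = 3; log2 difference -3.39 ± 0.41 SE, limma, adjusted p = 1.21e-06) and Cluster-90241.3 (DFR) from 1482 ± 275 to 125 ± 20.7 FPKM (-3.56 ± 0.45 SE, adjusted p = 2.05e-06).

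Of the regulators, 21 of 49 transcription factors fell from bud stage 3 and 0 rose, and 29 were higher and 1 lower at the initial flowering stage than at full bloom. Floral meristem determinacy, the ending of stem cell activity in the flower, had 5 of 6 transcripts fall from bud stage 3. The only list with rises there was miRNA production (3 of 6, the same list having 5 of 6 higher than at full bloom): Cluster-100695.17 went from 3.78 ± 2.82 to 19.7 ± 3.68 FPKM (SD, n = 3; log2 difference 2.25 ± 0.38 SE, limma, adjusted p = 7.72e-05). Cluster-100695.13, of this list, had the highest score of the 86 (1.73), which put it at rank 1038 and far from the members. Posttranscriptional gene silencing had 1 of 6 fall from bud stage 3 and 4 of 6 higher than at full bloom, and both transcripts of sucrose induced translational repression were higher than at full bloom. The latter, Cluster-73402.0 and Cluster-73402.1, are also counted among the 49 transcription factors, as is Cluster-100695.19 of miRNA production. These lists are thus not separate.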

How the data were processed

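Trimmomatic 0.36 trimmed the reads and Trinity assembled the transcripts, per the study's methods; the mapper and the expression program were not given in the sources used here. All deposited values are FPKM that the authors computed for each transcript and library, with 2 decimals, and the number of reads behind a value (the depth) is unknown. No gene names come with the identifiers. From the FPKM, log2(FPKM + 1) was computed from the deposited values and group means were taken. The 55099 transcripts with a mean of at least 5 FPKM in at least 1 of 9 groups were tested with limma 3.58.1 in R 4.3.3, with 1 mean per group over 27 libraries, a moderated spread with a trend, and Benjamini-Hochberg adjustment within each contrast. Python 3.11.15, pandas 2.3.3, numpy 2.4.6 and matplotlib 3.10.9 were used for the rest. The fit was tested on simulated data with known changes. The study's count-based test was not run, since FPKM are not counts.

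Named members are the 8 highest scores, the 8 highest levels, 3 on each side of the threshold, up to 3 rises and 3 falls per SZT or TZM contrast, the members of 5 cluster numbers with 3 or more members (most members first, ties by name), and up to 4 interactions. The largest fall or rise was allowed for each list of the study's named transcripts. Others are said to be chosen after their values were seen. The members and lists were chosen with earlier results of these data known. Alternatives were another pseudocount, filters, thresholds, scaling, a replicate block, smaller fits and leaving out each library. Of 30 pairs of libraries with the same replicate number, 0 had deviations from the group means that correlated above 0.1 (-0.20 to 0.05), so the numbers were not treated as pairs.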

Additional observations from a re-analysis of the deposited data

Results flagged for a closer look

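The change between bud and full bloom differed between TZM and SZT for 10 of the 200 members by a test of the difference itself (limma, adjusted p of at most 0.001). That is 5% of the members, against 13.0% of all tested transcripts. On the log2(FPKM + 1) scale this difference was -7.39 for Cluster-60403.68, -6.51 for Cluster-89374.0, 5.74 for Cluster-97078.1 and -5.41 for Cluster-50717.0. Each sign was the same in all 22 alternatives, and the calls ended in 3, 2, 14 and 10 of them, in that order.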

How the results depend on the processing

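With a pseudocount of 0.01, limma called 16 members in the SZT stage comparison, 19 in the TZM stage comparison, 11 between cultivars at the bud stage and 6 in the interaction, and 23 of the named transcripts between bud stage 3 and the initial flowering stage (main counts 25, 40, 27, 10 and 45). At an adjusted p under 0.05 the members called were 67, 76, 61, 59 at full bloom between cultivars (main 24) and 67 in the interaction. With the libraries of each comparison alone the counts were 3, 14, 0, 8 and 3, and 20 for the named transcripts. With the 12 SZT and TZM libraries alone they were 13, 8, 9, 15 and 3, with 11 members at 0 left out. Fewer libraries set the spread in these smaller fits. Counts of calls in this section are given without the share of all tested transcripts under the same setting. They show how the counts moved and are not read against the background.

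Leaving out 1 library at a time gave 14 to 41 members for the SZT stage, 23 to 41 for the TZM stage, 13 to 28 between cultivars at the bud stage, 14 to 26 at full bloom and 6 to 21 for the interaction. Without both SZT bud replicate 2 and TZM full-bloom replicate 1, a setting chosen after seeing the data, the counts were 23, 47, 30, 30 and 27. With a replicate block the counts were 25, 38, 24, 24 and 8, and 43 and 48 for the named transcripts, all within 1.5 times. Median-ratio scaling moved the median of all tested transcripts by 0.23 for the SZT stage, by -0.11 for the interaction and by -0.18 for the initial flowering stage against full bloom. The cause of these shifts was not tested.

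The choice of members moved more: 110 of the 200 were shared when L used a pseudocount of 0.01 and 101 when group medians replaced means, and 31 rather than 64 members had other transcripts that peaked when a score of at least 1 was asked. Of the 26 named calls of members, 11 ended with a pseudocount of 0.01, 15 with the libraries of the comparison alone, 13 with the 12 libraries alone, 3 without a filter, 2 with the replicate block and 0 with median-ratio scaling, and 0 reversed in direction under any alternative run. The depth is unknown, so low values carry an error that these files do not show, and with 3 libraries a group the number of samples limits the precision.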
